A study of Mus musculus with 8 samples.

Results

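Protein folding in the endoplasmic reticulum (ER) of mouse islets, and the stress response that watches over it, is described here through 37 genes. The genes were picked by symbol, with no threshold on a measured value. They comprise 11 lumenal chaperones and their cofactors, 6 genes of disulfide bond formation, 7 stress sensors and transcription factors, 4 targets of the eIF2α and ATF4 arm, and 9 genes of ER-associated degradation, translocation and the ER membrane. All 37 were found among the 22632 genes of the deposited table. Each of them also passed the filter applied to low values, at least 1 RPM (the reads of a gene scaled to the size of its library) in at least 2 libraries, which 13347 genes passed. No member depended on one group for this, since the lowest value of any member in any library was 2.27 RPM (Trib3).

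The islets, the hormone-secreting cell clusters of the pancreas, came from C57BL/6 mice in 4 groups of 2 libraries each. Mice aged 20 weeks on a diet with 45% fat were either Tcf7 -/- or their wild-type (Tcf7 +/+) littermates, and mice aged 8 weeks on a diet with 10% fat were likewise Tcf7 -/- or wild-type littermates. Tcf7 encodes the transcription factor TCF-1, which acts with β-catenin in Wnt signalling. The labels name neither the deleted part of the gene nor a promoter that limits the deletion to one tissue, and they leave unsaid if each library is 1 animal. The p-values therefore measure only the spread between these samples, which may be technical. Age and diet changed together, so that their effects cannot be told apart. For the younger mice the labels name regular chow in one field and 10% fat in another.

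Insulin is folded in the ER with the help of chaperones and of enzymes that form its disulfide bonds, and beta cells make it in large amounts. When unfolded protein builds up, the membrane sensors IRE1α (Ern1), PERK (Eif2ak3) and ATF6 start the unfolded protein response. IRE1α splices Xbp1 mRNA, ATF6 is cut to release a transcription factor, and PERK phosphorylates eIF2α, which slows translation while that of ATF4 goes on. XBP1 and ATF6 raise chaperones and degradation genes, and ATF4 and CHOP (Ddit3) raise genes of amino acid supply, feedback and, under lasting stress, cell death. Splicing of Xbp1 and phosphorylation cannot be read from a table of reads per gene.

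Library totals recovered from the RPM steps were 58.7 to 191 M reads, and each member had at least 180 and up to 348655 reads per library. Listed genes took 55.7% to 61.2% of the reads at 20 weeks, against 41.6% to 51.0% at 8 weeks. The beta cell hormone genes Ins2, Ins1 and Iapp stood between 5543 and 27831 RPM in every library, and the 12 beta cell markers together took 6.27% to 9.83% of the reads in listed genes at 20 weeks and 10.9% to 13.5% at 8 weeks. Digestive enzymes of acinar cells were also present, with summed levels of 24 markers of 10234 and 12028 RPM in knockout and 11724 and 33150 RPM in wild-type islets at 20 weeks, against 27764 and 14083 RPM in knockout and 3420 and 9779 RPM in wild-type islets at 8 weeks. Acinar cells are themselves rich in ER, and in bulk RNA fewer cells of a type and less RNA per cell cannot be told apart. In the libraries labelled knockout Tcf7 itself did not stand lower, with 4.56 and 2.56 RPM against 1.58 and 0.991 RPM in wild-type islets at 20 weeks, and 0.512 and 0.519 RPM against 0.277 and 0.381 RPM at 8 weeks. Reads summed over all its exons are no check on a deletion of unknown extent, so each direction between genotypes rests on the labels.

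Levels were compared between genes per kilobase of exon, with exon lengths from GENCODE M21. Ero1lb, the oxidase of the pancreas that drives disulfide bond formation, stood highest with a mean level of 269 RPM per kb over the 8 libraries. The chaperones Hsp90b1 (GRP94) and Hspa5 (BiP) followed at 184 and 175 RPM per kb, the disulfide isomerase P4hb at 162, and the lectin chaperone Calr at 112 RPM per kb. Hsp90b1 and Hspa5 did not separate, with ranges over libraries of 135 to 241 and 143 to 193 RPM per kb. Pdia3 (108 RPM per kb) and Herpud1 (102 RPM per kb) came next. Atf3, at a mean of 66.4 RPM per kb, was the highest of the transcription factors, above Ddit3 (47.0 RPM per kb) and Atf4 (45.0 RPM per kb). Their ranges over libraries overlapped, at 32.3 to 108, 28.3 to 92.3 and 39.2 to 50.3 RPM per kb. The lowest members were Trib3 (1.75 RPM per kb), Derl2 (4.18), Derl3 (4.49) and Ero1l (4.82).

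The promoters are shown before the comparisons, because many of the chaperone genes hold a known element of the stress response there. The genes were picked for known roles in folding and ER stress, so that the shares below are not independent of that choice. The ER stress response element (ERSE), which ATF6 together with NF-Y is known to bind, was searched as CCAAT and CCACG with 9 bases of any kind between them, on both strands, in RefSeq windows of 250 bases before to 50 bases after the gene start (build GRCm38.p6). A window was held for 33 of the 37 members, and 10 of these 33 contained the element, against 0.137% of 27025 genes with a window. ERSE-II, searched as ATTGG and CCACG with 1 base of any kind between them, was in 2 of the 33, against 0.0444% of genes. The letters of the 2 elements can overlap in principle, but no member matched both. The matches read as follows in the orientation of the element, with the fixed letters in capitals and the bases between them in lower case. Hsp90b1 held 2, one on each strand.
Hspa5: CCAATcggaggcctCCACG
Hsp90b1, first match: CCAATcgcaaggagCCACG
Hsp90b1, other match: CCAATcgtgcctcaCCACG
Calr: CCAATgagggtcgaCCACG
Canx: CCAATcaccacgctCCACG
Pdia6: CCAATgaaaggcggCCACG
Dnajc3: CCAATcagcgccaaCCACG
Creld2: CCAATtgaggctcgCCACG
Syvn1: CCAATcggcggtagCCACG
Ero1lb: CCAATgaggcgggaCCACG
Derl3: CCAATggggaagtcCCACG
Dnajb11: ATTGGcCCACG
Herpud1: ATTGGgCCACG

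These 13 matches lay in 12 genes, of which 6 are lumenal chaperones with the longer element and Dnajb11 a chaperone with the shorter one. Counted from the gene start, the first base of a match lay between position -212 (Hsp90b1) and position 8 (Dnajb11). The UPR element TGACGTGG and the amino acid response element TGATGCAAT, both searched on both strands, were in 0 of the 33 windows, against 0.714% and 0.222% of genes. A match is a run of letters and not a measured binding site, and no match says only that these letters are not in this window. The 250 bases before the start of 5 genes follow, with the element in capitals: the most abundant chaperones, the most abundant member, and the 2 members with an element that were called higher at 20 weeks.
Hspa5, chr2:34771840-34772089, plus strand: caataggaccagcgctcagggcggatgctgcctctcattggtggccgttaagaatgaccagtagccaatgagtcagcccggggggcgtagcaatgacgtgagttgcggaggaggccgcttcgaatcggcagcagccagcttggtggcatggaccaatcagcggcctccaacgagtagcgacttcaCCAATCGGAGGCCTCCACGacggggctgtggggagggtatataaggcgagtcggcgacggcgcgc
Hsp90b1, chr10:86705445-86705694, minus strand: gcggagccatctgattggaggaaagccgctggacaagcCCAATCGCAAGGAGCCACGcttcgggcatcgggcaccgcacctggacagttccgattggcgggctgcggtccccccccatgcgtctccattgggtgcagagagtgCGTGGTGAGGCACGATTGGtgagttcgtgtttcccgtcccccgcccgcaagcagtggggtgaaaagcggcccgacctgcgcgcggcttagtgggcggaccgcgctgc
Ero1lb, chr13:12565633-12565882, plus strand: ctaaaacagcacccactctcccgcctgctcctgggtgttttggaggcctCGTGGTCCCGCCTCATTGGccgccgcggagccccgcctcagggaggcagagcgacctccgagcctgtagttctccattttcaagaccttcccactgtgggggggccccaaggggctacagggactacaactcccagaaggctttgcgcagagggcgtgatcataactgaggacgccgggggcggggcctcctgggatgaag
Syvn1, chr19:6046326-6046575, plus strand: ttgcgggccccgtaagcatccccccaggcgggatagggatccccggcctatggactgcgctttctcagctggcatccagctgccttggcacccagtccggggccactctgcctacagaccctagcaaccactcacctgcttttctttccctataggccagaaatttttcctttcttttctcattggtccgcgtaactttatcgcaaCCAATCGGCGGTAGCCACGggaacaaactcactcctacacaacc
Herpud1, chr8:94386179-94386428, plus strand: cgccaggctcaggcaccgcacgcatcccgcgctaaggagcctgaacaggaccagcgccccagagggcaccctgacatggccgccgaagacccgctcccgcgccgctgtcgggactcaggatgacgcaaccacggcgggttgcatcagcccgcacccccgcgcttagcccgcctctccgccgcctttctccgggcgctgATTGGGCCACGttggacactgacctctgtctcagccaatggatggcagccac

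In Hspa5 the element began at position -65, and a run reading tatataa followed it. In Ero1lb and at the other match of Hsp90b1 the element lay on the strand opposite to the gene, so that its letters read CGTGG first. All 10 genes with the longer element had a log2 fold change below 0 in knockout against wild type at 8 weeks, as did 30 of all 37 members. At 20 weeks 4 of the 10 did, and 19 of the 37 members. None of these differences passed the test described next.

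The first comparison asked whether islets labelled Tcf7 knockout differed from wild-type islets in these genes at 20 weeks on 45% fat. None of the 37 members was called higher or lower by limma at an adjusted p of 0.05, where 0.03% of all tested genes were called higher and 0.015% lower. At an unadjusted p under 0.05 the count was 0 in limma and in edgeR, and 1 in limma after median-of-ratios scaling of the libraries. Differences were small and spread around 0: 18 members were above and 19 below, the median log2 fold change was -0.01 (-0.04 over all genes tested), and the range was -0.41 to 0.33, with standard errors of 0.20 to 0.41. For 36 of the 37 members the 95% interval of the difference lay within 2-fold in either direction, and for Atf3 it reached 2.02-fold higher.

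Both ends of this range belong to genes of the stress arm. Trib3, a pseudokinase gene induced by ATF4 and CHOP, had 3.06 and 4.67 RPM in knockout and 5.38 and 5.40 RPM in wild-type islets at 20 weeks, against 2.27 and 3.31 RPM in knockout and 3.02 and 2.68 RPM in wild-type islets at 8 weeks. Its libraries did not overlap between genotypes at 20 weeks, and the log2 fold change was -0.41 ± 0.22 with an interval of -0.87 to 0.04 (limma adjusted p = 1). Atf3, a transcription factor gene that many stresses induce, had 233 and 192 RPM in knockout and 229 and 124 RPM in wild-type islets at 20 weeks, against 72.2 and 138 RPM in knockout and 69.5 and 86.3 RPM in wild-type islets at 8 weeks. One wild-type library stood within the knockout values and the other well below, and the log2 fold change was 0.33 ± 0.33 at 20 weeks. Over the 37 members, the knockout libraries were both above the wild-type libraries for 1 (Derl3) and both below for 4 (Hyou1, Sel1l, Edem1 and Trib3), where 12.3% of all tested genes lay above and 21.2% below in this way. After median-of-ratios scaling 1 member lay above and 5 below, against 19.6% and 23.9% of genes. These shares of members were not higher than the background.

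**Figure D1:**
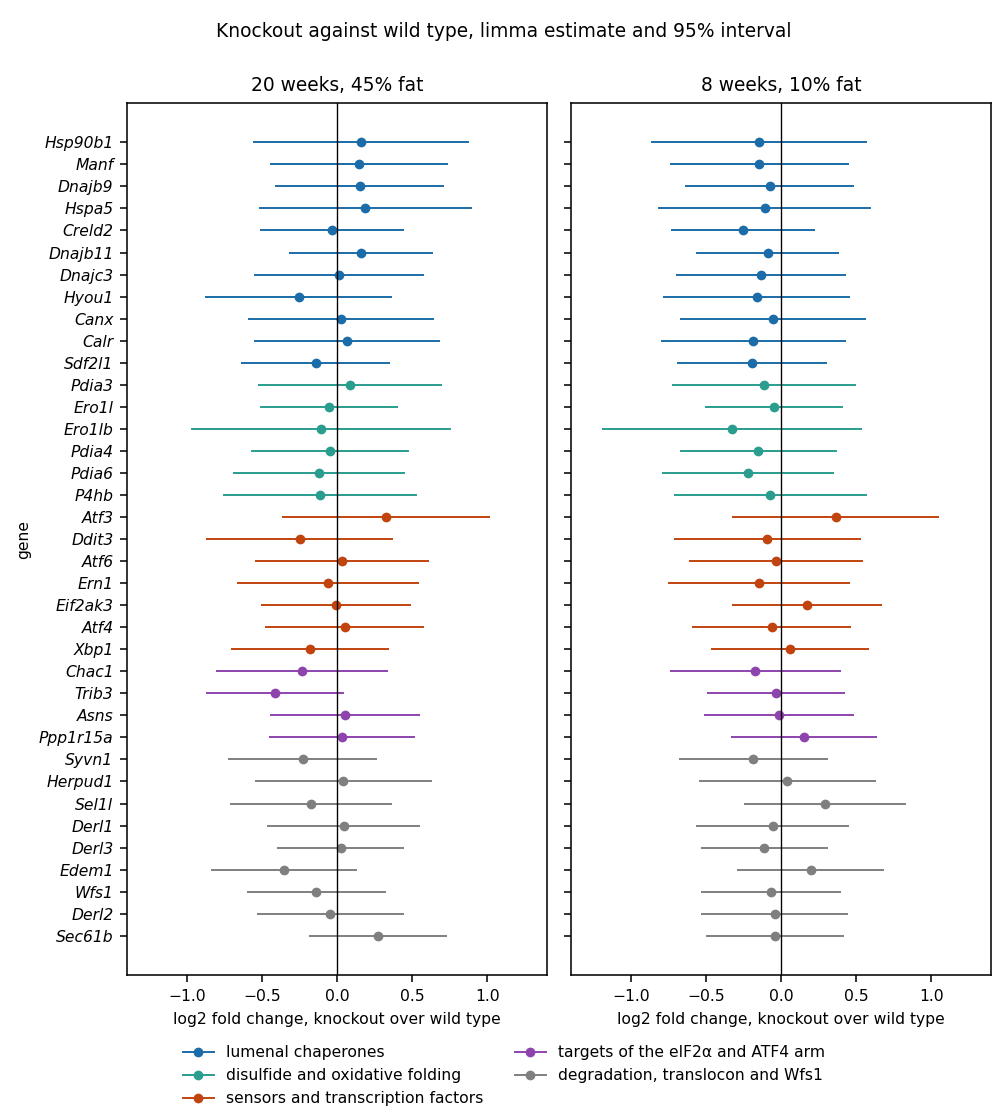
Log2 fold change of knockout over wild type (x axis) for each of the 37 genes (y axis), at 20 weeks on the left and at 8 weeks on the right, as the limma estimate (point) with its 95% interval (line) and coloured by role. Every interval crosses 0. At 8 weeks 30 of the 37 points lie left of 0.

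At 8 weeks on 10% fat the chaperones and the disulfide genes stood slightly lower in knockout than in wild-type islets, all in 1 direction, but none passed the test. Again 0 of 37 members were called, with 0.015% of all genes called higher and 0.195% lower, and 0 members had an unadjusted p under 0.05. The log2 fold change was below 0 for 30 members and above 0 for 7, with a median of -0.08 (-0.01 over all genes) and a range of -0.32 (Ero1lb) to 0.36 (Atf3). All 11 lumenal chaperones and all 6 disulfide genes were below 0, with medians of -0.14 and -0.13. For 35 members the 95% interval lay within 2-fold, the others being Atf3 (up to 2.07-fold) and Ero1lb (down to 0.440-fold).

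Ero1lb had 1584 and 1878 RPM in knockout and 2062 and 1673 RPM in wild-type islets at 20 weeks, against 1397 and 1783 RPM in knockout and 1813 and 2154 RPM in wild-type islets at 8 weeks. The knockout libraries lay below the wild-type ones at 8 weeks and overlapped them at 20 weeks, and the 8-week log2 fold change was -0.32 ± 0.41 (limma adjusted p = 1). Hspa5, the main Hsp70 chaperone of the ER and the protein that holds the sensors inactive, had 811 and 789 RPM in knockout and 817 and 604 RPM in wild-type islets at 20 weeks, against 706 and 683 RPM in knockout and 717 and 785 RPM in wild-type islets at 8 weeks. Its 8-week groups did not overlap but nearly touched, and the log2 fold change was -0.11 ± 0.33. In all, 2 members (Sel1l and Edem1) lay above and 11 below without overlap at 8 weeks, against 7.42% and 5.72% of all tested genes. The 11 were Hspa5, Hsp90b1, Calr, Dnajb11, Dnajc3, Manf, Creld2, Hyou1, Pdia4, Pdia6 and Ero1lb. This count depended on the scaling: after median-of-ratios scaling 3 members lay above and 2 below, against 15.4% and 16.1% of genes.

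Acinar and leukocyte markers also differed between the genotypes at 8 weeks, and their part in the direction of the chaperones was not tested beyond the fits given here. All 24 acinar markers had a log2 fold change above 0 in knockout against wild type at 8 weeks (median 1.78), and Amy2a5, pancreatic amylase, was called higher. Of 7 tested leukocyte markers 4 (Cd79b, Lyz2, Ms4a1 and Ptprc) were called lower. Cd79b (1.44 and 1.12 RPM) and Ms4a1 (1.82 and 1.73 RPM) passed the filter only through the wild-type libraries of 8 weeks, which favours such a call. With the average level of the acinar markers as a covariate, 8 of the 11 chaperones and 4 of the 6 disulfide genes turned above 0 at 8 weeks, with medians of 0.05 and 0.03. The median of all genes moved as well in that fit, from -0.01 to 0.13, so that both roles still lay below it. After median-of-ratios scaling and in edgeR all 11 and all 6 stayed below 0, and without knockout replicate 1, the 8-week library with the most acinar RNA, 9 of 11 and 5 of 6 were below 0. Without that library the median was -0.12 for each of the 2 roles and 0.18 over all genes. At 20 weeks 8 of 11 chaperones were above 0, but 1 of 11 was without wild-type replicate 2, the library of that age with the most acinar RNA, and 5 of 11 without knockout replicate 2. The chaperone median went from 0.07 to -0.10 and -0.05 in these 2 fits. Over all genes the median went down too, but by less, from -0.04 to -0.12 and -0.09. The cause of these changes of sign was not tested.

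Sel1l and Edem1, picked out after their values were seen, peaked at each age in the library richest in acinar RNA. Sel1l, the adaptor of the ubiquitin ligase complex of ER-associated degradation, had 182 and 175 RPM in knockout and 194 and 209 RPM in wild-type islets at 20 weeks, against 182 and 147 RPM in knockout and 124 and 144 RPM in wild-type islets at 8 weeks. Edem1, which helps to pick misfolded glycoproteins for degradation, had 62.5 and 69.6 RPM in knockout and 76.8 and 93.3 RPM in wild-type islets at 20 weeks, against 86.9 and 78.9 RPM in knockout and 68.1 and 76.4 RPM in wild-type islets at 8 weeks. At each age both were highest in the library with the highest mean of the acinar markers, wild-type replicate 2 at 20 weeks and knockout replicate 1 at 8 weeks, as were 1.12% of all tested genes. Lowest in those libraries at both ages were 10 of the 37 members, among them Hsp90b1, Calr, Manf, Pdia3 and Ddit3. That share is near the 27.6% of all genes with this order. After median-of-ratios scaling 4 members (Sel1l, Edem1, P4hb and Wfs1) were highest there and 1 (Ern1) lowest, against 8.02% and 6.71% of genes. The part of acinar RNA in these values was not tested beyond the covariate fit, in which the log2 fold changes of knockout over wild type were -0.05 at 20 weeks and 0.06 at 8 weeks for Sel1l, and -0.22 and -0.06 for Edem1.

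Whether the genotype difference itself changed between the settings was tested by the interaction, the difference at 20 weeks minus that at 8 weeks. None of the 37 members was called, with 0.0599% of all genes called above 0 and 0.00749% below, and 0 members reached an unadjusted p under 0.05. Values ran from -0.55 ± 0.32 for Edem1 to 0.31 ± 0.30 for Sec61b, a subunit of the translocon, as differences of log2 fold changes. Only 25 of the 37 intervals lay within 2-fold, and those of the other 12 reached beyond it. A call also had to pass the adjustment over all 13347 genes, so that a missing call does not show that there was no difference. After median-of-ratios scaling the counts of called members stayed at 0 in all 3 genotype tests, where 0.00749%, 0% and 0.0225% of all genes were called above 0 and 0%, 0.0674% and 0% below at 20 weeks, at 8 weeks and in the interaction. They were 0 in edgeR as well, where 0%, 0.00749% and 0.0225% of genes were called above 0 and 0%, 0.172% and 0% below.

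The remaining comparison set 20 weeks on 45% fat against 8 weeks on 10% fat, averaged over the genotypes. Of the 7 sensors and transcription factors 4 were called higher at 20 weeks, and 0 of the 11 chaperones and 0 of the 6 disulfide genes were. By limma 8 members were called higher, Atf3, Syvn1, Ddit3, Chac1, Atf6, Ern1, Herpud1 and Trib3, and 1 lower, Sdf2l1. Of all tested genes, 31.2% were called higher and 6.05% lower, so that the members' shares of 21.6% and 2.7% were not above the background. The median log2 fold change was 0.05 over the members and 0.17 over all genes.

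How the libraries were scaled mattered here. RPM were scaled to all reads, of which listed genes took a larger share at 20 weeks, and scaling by the median of ratios moved the median of all genes by 0.19 on the log2 scale, to -0.02. With that scaling the same 8 members were called higher, but 13 were called lower, against 29.6% and 29.4% of all genes. edgeR called 7 higher (all but Herpud1) and 14 lower, against 28.8% and 29.9% of genes. Set against the median of all genes, 15 members were above and 22 below in RPM, and 13 and 24 after median-of-ratios scaling. Changes by role below are given in RPM, with the value relative to the median of all genes where it matters.

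**Figure D2:**
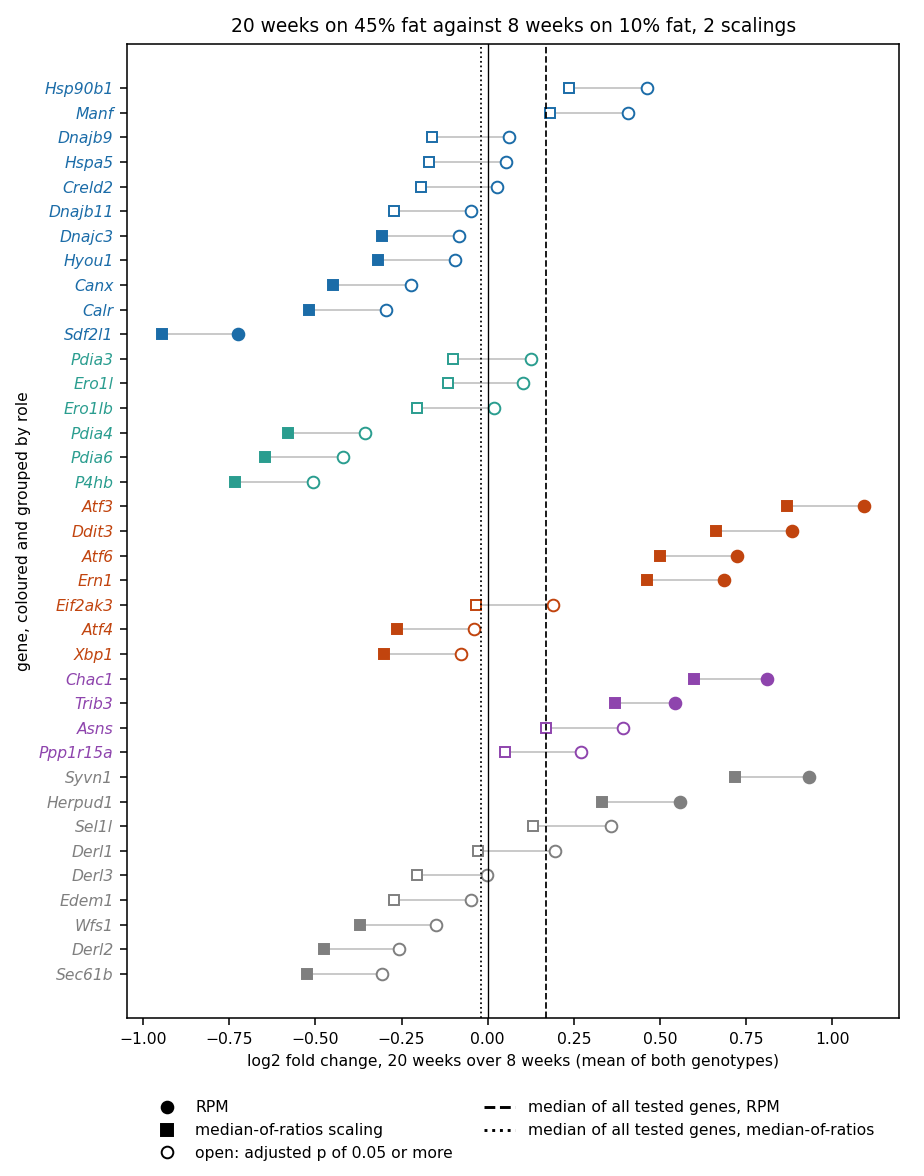
Log2 fold change of 20 weeks on 45% fat over 8 weeks on 10% fat (x axis) for each of the 37 genes (y axis, coloured by role), on RPM (circles) and after median-of-ratios scaling (squares); filled symbols passed an adjusted p of 0.05. The dashed and dotted lines mark the median of all tested genes, 0.17 and -0.02. The 8 members filled on the right are the same in both scalings, while most filled squares on the left belong to open circles.

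Among the 7 sensors and transcription factors 4 were called higher and 0 lower, and relative to the median of all genes the role's median in RPM stood at 0.52. Atf3 had the largest log2 fold change of all members in RPM, with 194 ± 50.8 RPM at 20 weeks against 91.5 ± 31.9 RPM at 8 weeks (SD, n = 4 each), a difference of 1.09 ± 0.23 (limma adjusted p = 0.0012). Its ranges over libraries still overlapped, through knockout replicate 2 at 8 weeks (138 RPM) and wild-type replicate 2 at 20 weeks (124 RPM). Ddit3 encodes CHOP, the transcription factor tied to death under lasting ER stress. It had 105 and 82.5 RPM in knockout and 158 and 78.0 RPM in wild-type islets at 20 weeks, against 48.5 and 57.7 RPM in knockout and 64.8 and 49.2 RPM in wild-type islets at 8 weeks. All 4 libraries at 20 weeks lay above all 4 at 8 weeks, 1 wild-type library was far above the rest, and the log2 fold change was 0.88 ± 0.21 (limma adjusted p = 0.0027).

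Of the 3 membrane sensors, Atf6 and Ern1 were called and Eif2ak3 was not, and the sensors were not tested against each other. Atf6 had 215 and 175 RPM in knockout and 205 and 175 RPM in wild-type islets at 20 weeks, against 98.6 and 132 RPM in knockout and 98.05 and 139.6 RPM in wild-type islets at 8 weeks, without overlap between the ages (0.72 ± 0.19, limma adjusted p = 0.0066). Ern1, the IRE1α gene, had 164 and 188 RPM in knockout and 219.7 and 153 RPM in wild-type islets at 20 weeks, against 81.6 and 137 RPM in knockout and 119.7 and 114 RPM in wild-type islets at 8 weeks, also without overlap (0.69 ± 0.20, limma adjusted p = 0.012). Eif2ak3, the PERK gene, did not pass, with 79.1 and 72.1 RPM in knockout and 78.0 and 73.9 RPM in wild-type islets at 20 weeks, against 62.9 and 78.9 RPM in knockout and 55.2 and 70.6 RPM in wild-type islets at 8 weeks (0.19 ± 0.17). One 8-week library lay within its narrow 20-week range, and its log2 fold change was close to the median of all genes. Without wild-type replicate 1 of 8 weeks Atf6 no longer passed, and without knockout replicate 2 or wild-type replicate 1 of 20 weeks Ern1 did not (limma adjusted p up to 0.078 and 0.076).

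The transcription factors that carry the IRE1α and PERK signals were not called higher. Xbp1 had 97.4 and 118 RPM in knockout and 133 and 111 RPM in wild-type islets at 20 weeks, against 114 and 133 RPM in knockout and 108 and 129 RPM in wild-type islets at 8 weeks (-0.08 ± 0.18, limma adjusted p = 0.76). Atf4, which is controlled largely at translation, had 96.3 and 116 RPM in knockout and 113 and 92.5 RPM in wild-type islets at 20 weeks, against 92.3 and 119 RPM in knockout and 117 and 102 RPM in wild-type islets at 8 weeks (-0.04 ± 0.18, limma adjusted p = 0.88). The ages overlapped for both in RPM. After median-of-ratios scaling both were called lower at 20 weeks, with log2 fold changes of -0.30 and -0.26.

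**Figure D3:**
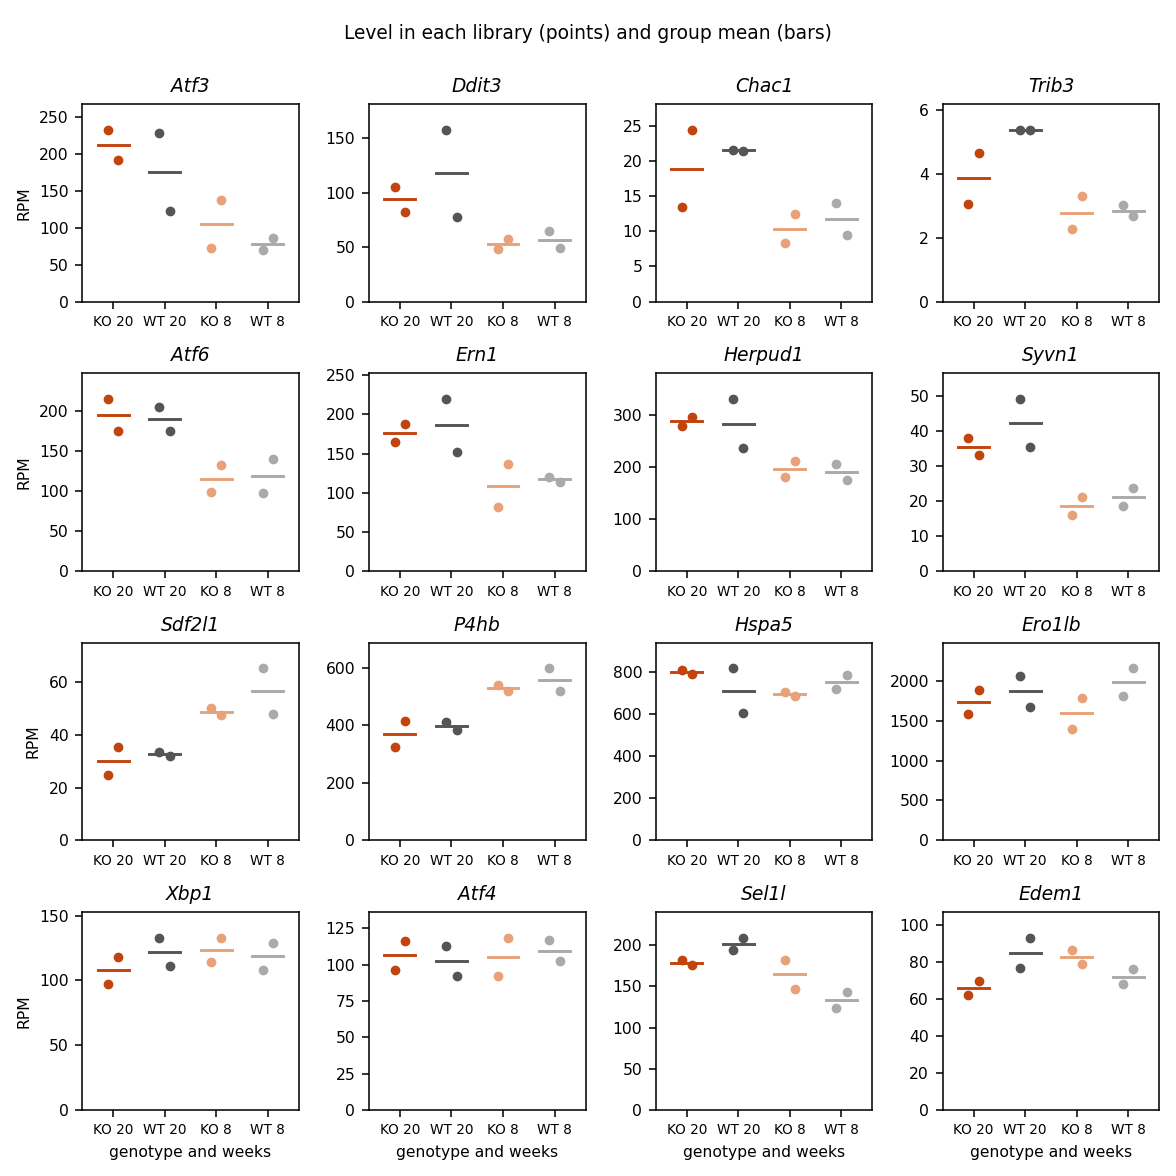
Level in RPM (y axis, from 0) of 16 of the 37 genes in each library (points) of the 4 groups (x axis), with the group mean as a bar; knockout in orange and wild type in grey, with 20 weeks in dark and 8 weeks in light shades. Syvn1, Ddit3, Atf6, Ern1 and Herpud1 have all 4 libraries of 20 weeks above all 4 of 8 weeks, and Sdf2l1 and P4hb have them below.

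All 4 targets of the eIF2α and ATF4 arm had a log2 fold change above 0, and 2 of them passed. Chac1, whose enzyme degrades glutathione, had 13.4 and 24.4 RPM in knockout and 21.6 and 21.4 RPM in wild-type islets at 20 weeks, against 8.28 and 12.4 RPM in knockout and 14.1 and 9.47 RPM in wild-type islets at 8 weeks (0.81 ± 0.19, limma adjusted p = 0.0027). One knockout library of 20 weeks lay within the 8-week values, and the other 3 were above them all. Trib3 averaged 4.63 ± 1.097 RPM at 20 weeks and 2.82 ± 0.448 RPM at 8 weeks (SD, n = 4 each; 0.54 ± 0.15, limma adjusted p = 0.0093), and did not pass without knockout replicate 2 of 20 weeks (adjusted p = 0.064). Asns, asparagine synthetase, lay at 93.8 ± 11.8 RPM against 70.8 ± 3.43 RPM (SD, n = 4 each) without overlap, yet did not pass (0.39 ± 0.17, limma adjusted p = 0.072). Ppp1r15a, the GADD34 subunit of the phosphatase that restores eIF2α, had 39.2 and 37.8 RPM in knockout and 44.0 and 32.2 RPM in wild-type islets at 20 weeks, against 29.4 and 37.3 RPM in knockout and 27.0 and 32.8 RPM in wild-type islets at 8 weeks (0.27 ± 0.16). It did not pass in RPM, after median-of-ratios scaling or in edgeR.

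Among the 11 lumenal chaperones 0 were called higher and 1 lower, and 9 lay below the median of all genes under both scalings. Sdf2l1, a partner of the Hsp40 protein ERdj3, fell at 20 weeks. It had 24.9 and 35.4 RPM in knockout and 33.7 and 32.2 RPM in wild-type islets at 20 weeks, against 50.1 and 47.5 RPM in knockout and 65.3 and 48.0 RPM in wild-type islets at 8 weeks, without overlap (-0.72 ± 0.17, limma adjusted p = 0.0022, and -0.94 after median-of-ratios scaling). The abundant Hspa5 averaged 755 ± 101 RPM at 20 weeks and 723 ± 43.5 RPM at 8 weeks (SD, n = 4 each; 0.05 ± 0.24, interval -0.44 to 0.55). Hsp90b1, the Hsp90 protein of the ER, had 953 and 855 RPM in knockout and 969.8 and 677 RPM in wild-type islets at 20 weeks, against 546 and 638 RPM in knockout and 665 and 641 RPM in wild-type islets at 8 weeks. Its 20-week libraries lay above the 8-week ones without overlap, but the difference did not pass (0.46 ± 0.24, limma adjusted p = 0.14). Manf, a secreted ER protein that protects beta cells in mice, had 257 and 221 RPM in knockout and 271 and 169.7 RPM in wild-type islets at 20 weeks, against 161 and 163 RPM in knockout and 185 and 173 RPM in wild-type islets at 8 weeks (0.41 ± 0.20, limma adjusted p = 0.12). Its wild-type replicate 2 of 20 weeks lay within the 8-week range, and Hsp90b1 and Manf were the only chaperones above the median of all genes in both scalings. Both have exons over an opposite-strand exon, a limit described below.

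The Hsp40 co-chaperones Dnajb9 and Dnajb11 bring clients to BiP. Dnajb9 had 73.8 and 110.2 RPM in knockout and 80.6 and 81.6 RPM in wild-type islets at 20 weeks, against 74.3 and 85.8 RPM in knockout and 68.1 and 104 RPM in wild-type islets at 8 weeks (0.06 ± 0.19). Dnajb11 had 67.8 and 61.8 RPM in knockout and 65.7 and 51.1 RPM in wild-type islets at 20 weeks, against 60.5 and 62.4 RPM in knockout and 64.8 and 66.1 RPM in wild-type islets at 8 weeks (-0.05 ± 0.16). Both overlapped between the ages. Dnajc3, Hyou1, Canx, Calr and Creld2 did not pass either, with log2 fold changes of -0.29 (Calr) to 0.03 (Creld2). Calr and Canx, the lectin chaperones that hold glycoproteins for folding, were called lower after median-of-ratios scaling (-0.52 and -0.45), together with the co-chaperone Dnajc3, the nucleotide exchange factor Hyou1 and Sdf2l1.

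No disulfide gene was called in RPM, although all 6 lay below the median of all genes in both scalings. P4hb, a disulfide isomerase, averaged 383 ± 42.7 RPM at 20 weeks and 544 ± 37.5 RPM at 8 weeks (SD, n = 4 each; -0.51 ± 0.21, limma adjusted p = 0.072), without overlap. Pdia4 had 101 and 105 RPM in knockout and 125 and 90.1 RPM in wild-type islets at 20 weeks, against 126 and 128 RPM in knockout and 142 and 141 RPM in wild-type islets at 8 weeks (-0.36 ± 0.17, limma adjusted p = 0.12). Pdia6, which also acts on IRE1α, had 149.7 and 200.2 RPM in knockout and 206 and 172 RPM in wild-type islets at 20 weeks, against 224 and 225 RPM in knockout and 278 and 245 RPM in wild-type islets at 8 weeks (-0.42 ± 0.19, limma adjusted p = 0.092). These 3 isomerases had all 20-week libraries below all 8-week libraries, and all 3 were called lower after median-of-ratios scaling (-0.73, -0.58 and -0.64). Pdia3, the isomerase that works with Calr and Canx, stood apart from them, with 372 and 355 RPM in knockout and 393 and 299 RPM in wild-type islets at 20 weeks, against 298 and 325 RPM in knockout and 353 and 322 RPM in wild-type islets at 8 weeks (0.12 ± 0.20). Pdia3 and Pdia6 have exons over an opposite-strand exon, a limit described below. The oxidases Ero1l (0.10 ± 0.15) and Ero1lb (0.02 ± 0.29) overlapped between the ages.

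Of the 9 genes of degradation, translocation and the ER membrane, 2 were called higher. Syvn1, the ubiquitin ligase Hrd1, had the smallest p of all members, with 37.9 and 33.1 RPM in knockout and 49.1 and 35.4 RPM in wild-type islets at 20 weeks, against 16.01 and 21.1 RPM in knockout and 18.7 and 23.6 RPM in wild-type islets at 8 weeks (0.93 ± 0.16, limma adjusted p = 0.00023). Herpud1, a scaffold of the same ligase complex, had 279 and 295 RPM in knockout and 330.2 and 235 RPM in wild-type islets at 20 weeks, against 179.7 and 211 RPM in knockout and 205 and 174 RPM in wild-type islets at 8 weeks (0.56 ± 0.20, limma adjusted p = 0.033). The ages did not overlap for either, but the call of Herpud1 was lost in 7 of 16 alternatives, 5 of them with 1 library left out, at adjusted p of up to 0.17. Sel1l did not pass (0.36 ± 0.18, limma adjusted p = 0.13), and Edem1, Derl1 and Derl3 lay between -0.05 and 0.20 on the log2 scale. Derl2, one of the derlins that draw proteins out of the ER, had 25.7 and 34.7 RPM in knockout and 33.5 and 28.5 RPM in wild-type islets at 20 weeks, against 33.9 and 38.0 RPM in knockout and 32.1 and 42.6 RPM in wild-type islets at 8 weeks (-0.26 ± 0.16). Wfs1, the gene of Wolfram syndrome, had 32.5 and 39.8 RPM in knockout and 42.1 and 37.5 RPM in wild-type islets at 20 weeks, against 37.6 and 44.9 RPM in knockout and 41.6 and 44.7 RPM in wild-type islets at 8 weeks (-0.15 ± 0.15). Derl2, Wfs1 and Sec61b (-0.31 ± 0.15) overlapped between the ages in RPM and were called lower after median-of-ratios scaling.

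**Figure D4:**
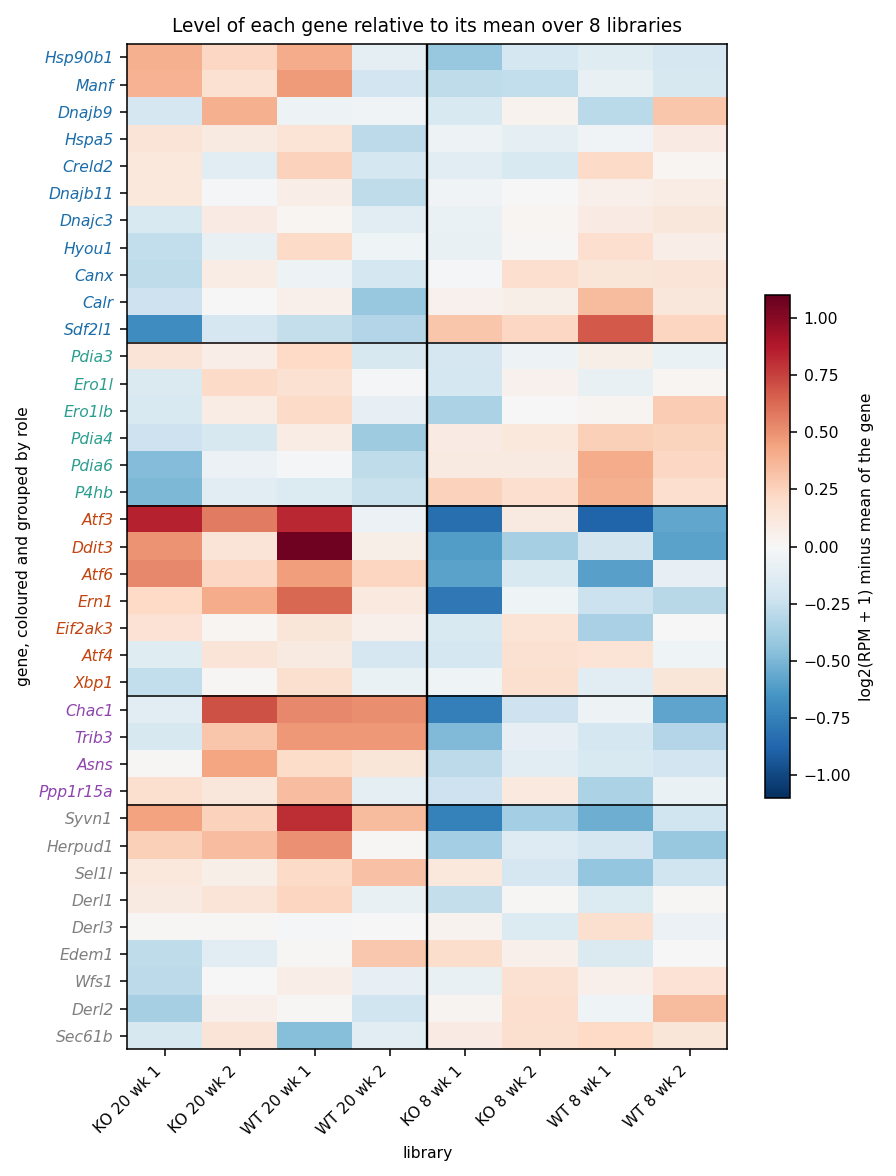
Level of each of the 37 genes (y axis, grouped and coloured by role) in each of the 8 libraries (x axis), as log2(RPM + 1) minus the mean of the gene over the libraries (colour scale, red above and blue below). Most cells left of the black line are red in the rows of Atf3, Ddit3, Atf6, Ern1, Chac1, Trib3, Syvn1 and Herpud1, and blue in those of Sdf2l1, Pdia6 and P4hb.

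The 9 genes called between the ages had the same sign within each genotype in RPM, at 2 libraries a side. In knockout islets 3 members were called higher (Atf3, Chac1 and Syvn1) and 1 lower (Sdf2l1), against 19.8% and 2.22% of all genes. In wild-type islets 5 were called higher (Atf3, Ddit3, Chac1, Trib3 and Syvn1) and 1 lower (Sdf2l1), against 16.9% and 1.63% of genes. After median-of-ratios scaling 4 members were called higher in knockout islets (Atf3, Atf6, Ern1 and Syvn1) and 7 lower (Sdf2l1, P4hb, Pdia4, Pdia6, Xbp1, Derl2 and Wfs1), against 24% and 21.6% of genes. With that scaling 3 were called higher in wild-type islets (Atf3, Trib3 and Syvn1) and 9 lower (Sdf2l1, P4hb, Pdia4, Pdia6, Calr, Canx, Sec61b, Derl2 and Wfs1), against 20.8% and 17.3% of genes. Chac1 was thus no longer called within either genotype (limma adjusted p = 0.11 in knockout and 0.097 in wild type), nor Ddit3 within wild type (limma adjusted p = 0.080). Atf3, Syvn1 and Sdf2l1 were called within both genotypes under both scalings. Acinar markers were called in opposite directions within the genotypes in RPM: 0 of 24 were called higher and 5 lower in knockout islets, and 18 higher and 0 lower in wild-type islets. Over both genotypes, all 4 libraries of 20 weeks lay above all 4 of 8 weeks for 7 members and below for 4, against 30.4% and 8.19% of all genes. After median-of-ratios scaling the counts were 4 and 11, against 26.9% and 26.8%. Beta cell markers differed as well between the ages: 1 of 12 was called lower (Mafa) in RPM, against 6.05% of all genes. After median-of-ratios scaling 6 were, against 29.4% of all genes. Of the acinar markers 3 of 24 were called higher in RPM and 0 after the other scaling, against 31.2% and 29.6% of all genes. Among 5 hormone genes of other islet cells Ghrl was called higher and Gcg, Ppy and Pyy lower in RPM. Ghrl was near the floor, with 0.497 to 0.982 RPM in the libraries of 8 weeks. It passed the filter only through the libraries of 20 weeks, which favours such a call. The part of these marker and hormone genes in the values of the 37 genes was not tested.

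The sources used here do not state the strand setting of the counting, and 10 members have exons that overlap an exon on the opposite strand in GENCODE M21. For 7 of them the partner is listed in the table. Tulp2 overlaps Ppp1r15a by 12 bases, and stood at 61.5 and 66.1 RPM in knockout and 73.0 and 64.7 RPM in wild-type islets at 20 weeks, against 0.0941 and 0.0488 RPM in knockout and 0.0179 and 0.0645 RPM in wild-type islets at 8 weeks. Atp6v1c2, which overlaps Pdia6, stood at 2.62 and 2.15 RPM in knockout and 1.61 and 1.17 RPM in wild-type islets at 20 weeks, against 0.0627 and 0.0549 RPM in knockout and 0.0179 and 0.0645 RPM in wild-type islets at 8 weeks. Catsper2, which overlaps Pdia3, stood at 19.6 and 19.7 RPM in knockout and 25.9 and 19.5 RPM in wild-type islets at 20 weeks, against 3.13 and 5.51 RPM in knockout and 3.74 and 4.53 RPM in wild-type islets at 8 weeks. At 20 weeks Tulp2 thus stood above Ppp1r15a itself, while Atp6v1c2 and Catsper2 stood far below their members, and all 3 were lower at 8 weeks than at 20 weeks.

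The partners of called members differed less between the ages. Mars, methionyl-tRNA synthetase, shares 68 exon bases with Ddit3 and stood at 43.8 and 47.6 RPM in knockout and 55.5 and 45.7 RPM in wild-type islets at 20 weeks, against 26.7 and 33.2 RPM in knockout and 29.7 and 34.4 RPM in wild-type islets at 8 weeks. Mrpl49 shares 91 exon bases with Syvn1 and stood at 13.2 and 13.2 RPM in knockout and 13.6 and 9.10 RPM in wild-type islets at 20 weeks, against 7.53 and 9.80 RPM in knockout and 8.65 and 8.32 RPM in wild-type islets at 8 weeks. Both were higher in each 20-week library than the highest 8-week library, except for wild-type replicate 2 and Mrpl49. Dcaf1, which overlaps Manf, ranged from 54.9 to 99.8 RPM at 20 weeks and from 30.3 to 43.8 RPM at 8 weeks, and Mis12, which overlaps Derl2, from 6.37 to 8.14 RPM at 20 weeks and from 7.36 to 10.4 RPM at 8 weeks. The partners of Hsp90b1, Dnajb9 and Eif2ak3 have no values here, and Dnajb11, Herpud1 and Atf3 meet an opposite-strand gene in introns alone. Ddit3 and Syvn1 are therefore uncertain at 20 weeks, since their reads and those of the partner cannot be told apart. The same limit holds for the other members with exons over an opposite-strand exon: Hsp90b1, Manf, Dnajb9, Pdia3, Pdia6, Eif2ak3, Ppp1r15a and Derl2. Over all tested genes, those with such an overlap had a median log2 fold change of 0.25 (n = 4195), against 0.13 for those without (n = 8919), and 38.1% against 27.6% were called higher at 20 weeks. In a fit without such genes, chosen after seeing the data, 6 of the 27 remaining members were called higher (Atf3, Atf6, Ern1, Trib3, Chac1 and Herpud1) and 1 lower (Sdf2l1), against 26.5% and 6.15% of 9152 genes. The part of opposite-strand reads in the other values was not tested.

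**Figure D5:**
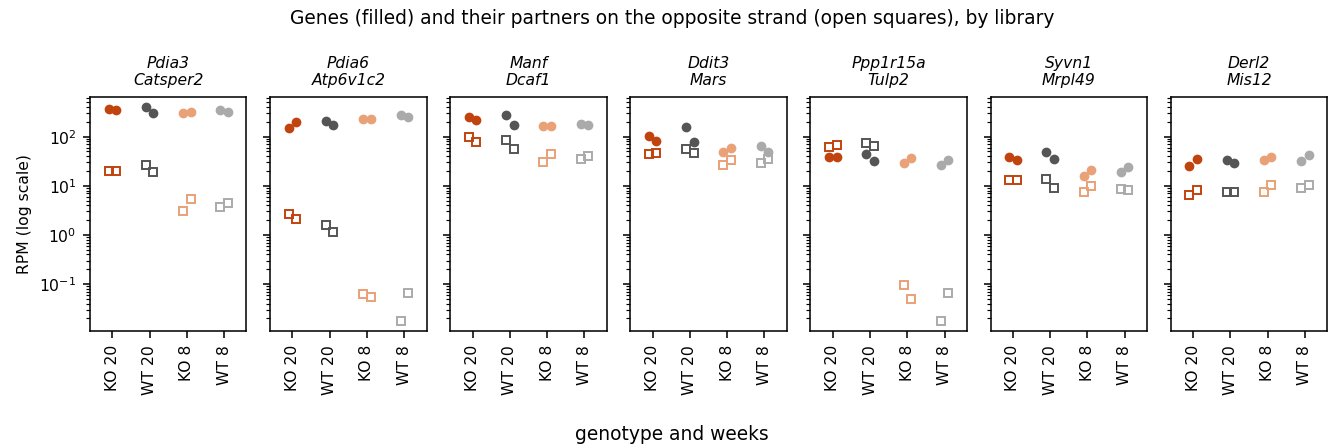
Level in RPM (y axis, log scale) of 7 members (filled circles) and of the gene that overlaps each on the opposite strand (open squares), in the libraries of the 4 groups (x axis). The squares of Tulp2 and Atp6v1c2 stand below 0.1 RPM in all 8-week libraries, and at 20 weeks that of Tulp2 stands above Ppp1r15a in every library.

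Other genes of the same pathways, taken from 5 lists, had 0 calls in either genotype comparison and in the interaction. Between the ages, 1 of 23 genes of folding and glycosylation was called higher and 5 lower, led by Sil1, an exchange factor of BiP (0.72 ± 0.17, limma adjusted p = 0.003), and Mogs, the glucosidase that starts glycan trimming (-0.58 ± 0.14, limma adjusted p = 0.0035). Of 14 translocation genes 1 was called higher, Srp54a (0.45 ± 0.15, limma adjusted p = 0.024), and 1 lower, Ssr2 (-0.66 ± 0.16, limma adjusted p = 0.0031). Of 16 degradation genes 3 were called higher, with Sel1l3 at 0.70 ± 0.15, limma adjusted p = 0.0014, and 1 lower, the lectin gene Os9 (-0.49 ± 0.16, limma adjusted p = 0.026). These RPM counts stand beside 31.2% of all genes called higher and 6.05% called lower. The share called higher was below this in each of these 3 lists. The share called lower was above it in each, but rested on 1 gene for translocation and for degradation. After median-of-ratios scaling 16, 9 and 10 genes of these lists were called lower and 2, 1 and 3 higher, beside 29.4% and 29.6% of all genes.

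Of 18 tested stress sensors and regulators 9 were called higher and 2 lower, 50% and 11.1%, beside 31.2% and 6.05% of all genes. After median-of-ratios scaling 8 and 3 were, 44.4% and 16.7%, beside 29.6% and 29.4%. Nupr1, a stress-induced chromatin protein gene, led with 71.0 and 63.6 RPM in knockout and 39.8 and 61.7 RPM in wild-type islets at 20 weeks, against 35.0 and 24.1 RPM in knockout and 12.8 and 20.5 RPM in wild-type islets at 8 weeks (1.37 ± 0.19, limma adjusted p = 1.8e-05). All its 20-week libraries lay above its 8-week libraries, and the gene called lower with the smallest p was Creb3 (-0.40 ± 0.14, limma adjusted p = 0.037). Of 20 tested ATF4 target genes 7 were called higher and 0 lower in RPM, where 35.0% called higher is near the share of all genes. After median-of-ratios scaling 4 were called in each direction, 20.0%, which is below the share of all genes in both directions. Phgdh, which starts serine synthesis, led with 12.7 and 21.8 RPM in knockout and 15.9 and 18.9 RPM in wild-type islets at 20 weeks, against 6.70 and 7.04 RPM in knockout and 7.65 and 8.52 RPM in wild-type islets at 8 weeks (1.09 ± 0.17, limma adjusted p = 5.1e-05). The median log2 fold change in RPM was 0.39 for the regulators and 0.18 for the ATF4 targets, beside 0.17 for all genes, and -0.16, -0.11 and -0.09 for the folding, translocation and degradation lists.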

How the data were processed

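Islet RNA (total RNA, ribosomal RNA depletion and TruSeq libraries, per the labels' protocols) was measured in 8 libraries. The authors deposited 1 table of RPM per gene. CASAVA 1.8, FastQC, TopHat 1.4.1 and the mm9 genome are named in the submitters' processing notes; the sources used here give no counting tool, annotation or strand setting. All values were whole multiples of 1 read (0.00523 to 0.0170 RPM) within 0.01 read, which gave the library totals. A difference between genes in these units cannot be read without their length.

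Genes that reached 1 RPM in 2 or more libraries were fitted with limma 3.58.1 (R 4.3.3) on log2(RPM + 1), with a mean-variance trend, over all 8 libraries in 4 groups (4 residual and 14.0 prior degrees of freedom). Adjustment was by Benjamini and Hochberg's method over all 13347 genes at a threshold of 0.05. Fold changes are log2 values with their standard error, on the log2(RPM + 1) scale, which understates the change of low genes; intervals are 95% intervals. The fit was repeated after scaling by median-of-ratios size factors, with edgeR 4.0.16 (quasi-likelihood test, TMM) on the recovered reads, with other filters and pseudocounts, and without each library in turn. The scripts were tested on simulated data. Libraries of a group differed by far more than counting noise (chi-square per degree of freedom 42.9 to 339).

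Exon overlaps and lengths came from GENCODE M21, to which 91.7% of the gene identifiers matched, and Ero1l and Ero1lb were matched through RefSeq synonyms; no coordinate of the mm9 files is given. Promoter windows came from RefSeq (GRCm38.p6). Values in every library were given for 16 chosen members, for the called members and for those with an opposite-strand overlap, with Sel1l and Edem1 added after their values were seen. Calls of some marker genes are not reported here. The members and lists were chosen with earlier results of these data known.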

Additional observations from a re-analysis of the deposited data

How the results depend on the processing

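No member was called for knockout against wild type at 20 weeks, at 8 weeks or in the interaction under any of the 18 alternatives, the fits without 1 library included (0 in each). Of 2402 recomputed values of single comparisons, 238 had another sign than at first, all of them uncalled. Between 20 and 8 weeks 9 members were called; 21 were after median-of-ratios scaling and 21 in edgeR, of which 13 and 14 were lower in place of 1. Without a filter on low values 5 were called higher in place of 8, and without the mean-variance trend 3 were called lower. With 1 library left out, the count ranged from 6 to 13, the count called higher from 5 (without knockout replicate 2 of 20 weeks) to 10, and the count called lower from 1 to 3 (without either knockout replicate of 8 weeks). The cause was not tested. The calls of Atf3, Chac1 and Sdf2l1 held in all 16 alternatives, and those of Ddit3 and Syvn1 in all 15 that kept them. In the fit without genes overlapping the opposite strand, chosen after seeing the data, 7 of 27 members were called.

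No paired analysis was possible because the labels give the groups no shared replicate numbers. With 2 libraries a group, the intervals of single members for knockout against wild type reached 2.07-fold higher (Atf3 at 8 weeks) and 0.440-fold (Ero1lb at 8 weeks). Differences inside an interval are not excluded, and the size of difference that would have been called was not tested.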

Other observations

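Beside their levels one by one, the 37 genes can be summed. Together they took 1.398% and 1.41% of the reads in listed genes in knockout and 1.48% and 1.19% in wild-type islets at 20 weeks, against 1.65% and 1.51% in knockout and 1.88% and 1.76% in wild-type islets at 8 weeks. The disulfide genes took 0.458% and 0.505% in knockout and 0.527% and 0.436% in wild-type islets at 20 weeks, against 0.626% and 0.589% in knockout and 0.761% and 0.736% in wild-type islets at 8 weeks. On this scale each 20-week library stood below each 8-week library in both sums. In summed RPM they overlapped, with 7186 to 9076 RPM at 20 weeks and 6878 to 8152 RPM at 8 weeks for all members, and 2552 to 3225 RPM and 2608 to 3405 RPM for the disulfide genes. The sensors and transcription factors took 0.133% to 0.186% at 20 weeks and 0.137% to 0.156% at 8 weeks, and these ranges overlapped, while their summed RPM of 807 to 1136 at 20 weeks lay above the 570.1 to 795 at 8 weeks. A share of the reads in listed genes also moves with every other listed gene. Ero1lb alone made up most of the disulfide sum in every library.

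Of 7 tested stromal and endothelial markers 2 were called lower at 20 weeks than at 8 weeks by limma in RPM (Col3a1 and Dcn), beside 6.05% of all genes. Their calls after median-of-ratios scaling, where 29.4% of all genes were called lower, are not reported here.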
